A study of Rattus norvegicus with 11 samples.

Results

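Partial bladder outlet obstruction (PBOO) narrows the urethra below the bladder, so that the bladder wall works against a raised outlet resistance. The comparison described here set the transcriptome of obstructed rat bladder at week 5 against normal rat bladder of the same week. It held 5 of the 11 samples of the series, chosen by their labels: 2 BOO model samples (called PBOO replicates 1 and 2 here) and 3 normal samples. All came from bladder tissue of Sprague-Dawley rats, an outbred laboratory strain. In the study's methods a suture was tied around the bladder neck and urethra over a catheter that was then withdrawn, and control rats had only the abdominal incision. The labels call these controls normal and name neither sex nor any drug or transgene. Of age they hold only the word adult in the names of the 3 normal samples, while the PBOO samples are named DO, a term left unexplained. The methods describe female rats of adult age. Whole tissue was extracted, so muscle, stroma, urothelium, vessels, nerves and immune cells were measured together. Gene levels were deposited as FPKM, fragments scaled to transcript length and to the size of the library, for 18507 genes. No counts were given with them, so the sequencing depth behind a value is unknown.

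Sex, as read from the Y chromosome, differed between the groups. Eif2s3y, the Y-linked copy of a translation initiation factor gene, was at 20.9, 24.8 and 15.8 FPKM in the normal samples and at 0 and 0.0320 FPKM in the PBOO samples. Kdm5d, a Y-linked histone demethylase, was at 5.61, 5.97 and 5.25 FPKM in the normal samples and was listed at 0 in both PBOO samples. The gene listed as Ddx3, which RefSeq gives as an older name of the Y-linked Ddx3y and also as the symbol of another gene, was at 9.13, 10.4 and 8.04 FPKM in the normal samples and 0 in both PBOO samples. The 3 normal libraries therefore held Y-linked transcripts that the 2 PBOO libraries lacked, which goes against the female animals of the methods for the normal libraries. A difference between obstruction and normal cannot be told apart from a difference between these sexes anywhere in the comparison, and neither can any other difference that goes with the separate sample names of the groups. The 8 Y-linked genes were left out of every test.

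Normal replicate 2 also held transcripts of prostate, which lies at the neck of the male bladder. Pbsn, which encodes probasin, a secreted protein of rat prostate, was at 30.8 FPKM there and was listed at 0 in the other 4 samples. Psbpc2, a chain of the prostatic steroid-binding protein, was at 3462 FPKM in normal replicate 2 and at 0.412 to 1.20 FPKM in the others. Over 9 prostate genes chosen after their values were seen, the summed level was 7621 FPKM in normal replicate 2, 1.76% of that column, and 1.37 to 3.91 FPKM in the other samples. This goes against the bladder label for a part of that library. Leaving it out gave 840 genes higher and 1202 lower in the test described below, against 1082 and 1549, and its effect on a gene list is given beside the list where a count above 2 moved by more than 1.5-fold.

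Of the remaining genes, 13681 averaged 0.5 FPKM or more across the 5 samples and were tested. A gene near the floor in a group passed this filter only through the other group, so its call could go in a single direction. The 5 columns summed to 424928 to 469671 FPKM. On log2(FPKM + 0.1), Pearson's r between samples across these genes, which are not independent replicates, was 0.951 to 0.982 among the normal samples, 0.932 between the PBOO samples and 0.765 to 0.854 between the groups. The first principal component held 73.83% of the variance and separated the groups, and the second, with 13.65%, set the 2 PBOO samples apart from each other. Between the PBOO samples 514 genes differed at least 4-fold, against 86 to 245 for pairs of normal samples. The labels do not say whether the samples of a group came from separate animals, so p-values measure only the spread between these samples.

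The wall of the bladder has an inner lining, the urothelium, whose basal cells carry keratins 5 and 14 and whose umbrella cells face the urine with plaques of uroplakin proteins. Beneath it lie a stroma of fibroblasts, vessels and nerves and the detrusor, a smooth muscle that contracts on acetylcholine and ATP released by nerves. In outlet obstruction the detrusor is known to enlarge first and to fail in some bladders later, with changes in matrix, innervation and inflammation.

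Smooth muscle, stromal and nerve genes stood far lower in the PBOO bladders, while genes of epithelial defence, inflammation and the interferon response stood higher. With a Benjamini-Hochberg adjusted p under 0.05 in limma and at least a 2-fold difference, 1082 genes (7.91% of those tested) were called higher in PBOO and 1549 (11.3%) lower. With the second rule used here, an unadjusted p under 0.05 and at least 4-fold, 491 genes (3.59%) were higher and 937 (6.85%) lower. Both PBOO samples lay above all 3 normal samples in 4828 genes (35.3%) and below them in 3412 (24.9%). Among the genes called by the first rule, 190 were at least 8-fold higher and 464 at least 8-fold lower. The genes called lower held 18.7% to 20% of all FPKM in normal bladder, against 3.18% and 2.54% in PBOO. The genes called higher held 4.91% to 5.29% in normal bladder, against 14.8% and 16.9% in PBOO. In whole tissue, fewer cells of a type and less RNA per cell cannot be told apart. Over all genes tested the median log2 fold change was 0.123, and it was 0.021 when columns were scaled by median ratios, so differences are read against a common shift of that size. Log2 fold changes are PBOO minus normal on the log2(FPKM + 0.1) scale, which understates the change of genes with low FPKM. The count of higher genes was 646 without normal replicate 1, 719 without normal replicate 3 and 1696 without PBOO replicate 1, and the count of lower genes was 1027 without normal replicate 1.

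**Figure D1:**
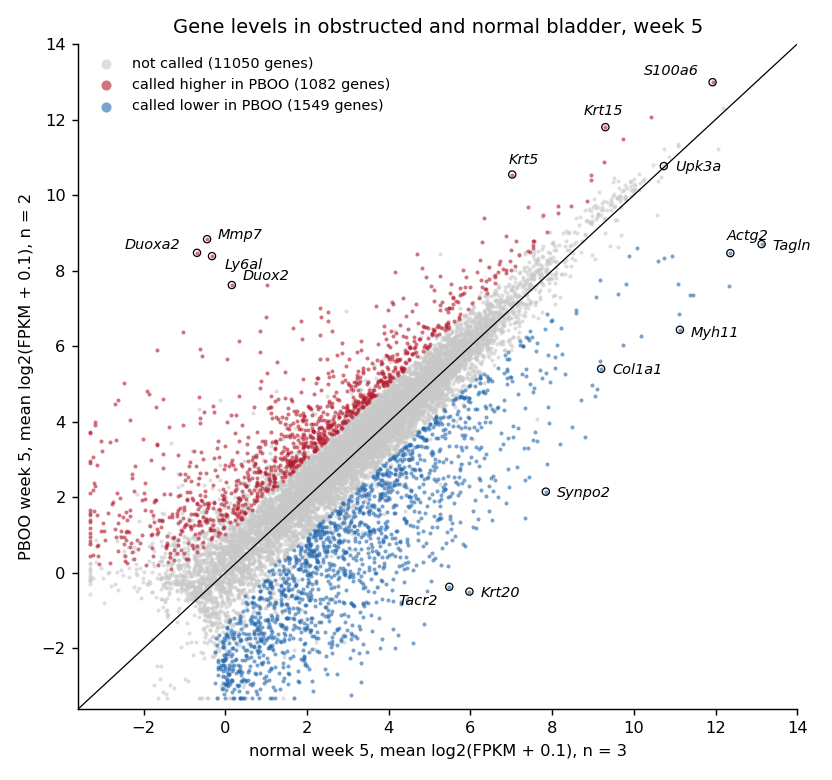
Mean log2(FPKM + 0.1) of the 13681 genes tested in the 3 normal samples (x axis) and the 2 PBOO samples (y axis) of week 5; each point is a gene, red called higher, blue called lower, grey not called, and the line marks equal levels. Contractile genes such as Tagln and Myh11 lie far below the line at the high end, Mmp7, Duoxa2, Ly6al and Duox2 lie far above it at the low end, and Upk3a lies on it.

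The contractile apparatus of smooth muscle was lower nearly throughout. Of 37 genes of this list tested, 35 fell (94.6%, against 11.3% of all genes) and 0 rose, with a median log2 fold change of -3.816. Tagln, which encodes the actin-binding protein transgelin and was the highest gene in each normal sample, was at 9124, 7632 and 10278 FPKM in normal and 616 and 282 FPKM in PBOO (log2 fold change -4.42, SE 0.38, adjusted p = 0.00118). Actg2, the enteric smooth muscle actin, was at 5525, 4767 and 5541 FPKM in normal and 433 and 287 FPKM in PBOO (log2 fold change -3.90, SE 0.24, adjusted p = 0.000471). Myh11, the smooth muscle myosin heavy chain, was at 2239.9, 2079 and 2401 FPKM in normal and 111 and 67.4 FPKM in PBOO (log2 fold change -4.69, SE 0.24, adjusted p = 0.000296). For each of these genes both PBOO samples lay far below every normal sample, and over the list this held for 36 of 37 genes, against 24.9% of all genes. Synm, an intermediate filament protein that ties desmin to the membrane, fell furthest of the list, from 200.2, 205 and 105 FPKM to 3.15 and 2.17 FPKM (log2 fold change -5.90, SE 0.34, adjusted p = 0.000401). Synpo2 (log2 fold change -5.70), an actin-bundling protein of the Z-disc, Mylk (-5.21), the kinase that switches smooth muscle myosin on, and Lmod1 (-5.02), which nucleates actin filaments, followed. The members not called were Cnn2 (-0.89, adjusted p = 0.1), a calponin also found outside smooth muscle, and Smtnl2 (-0.22, adjusted p = 0.509), a smoothelin-like gene.

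**Figure D2:**
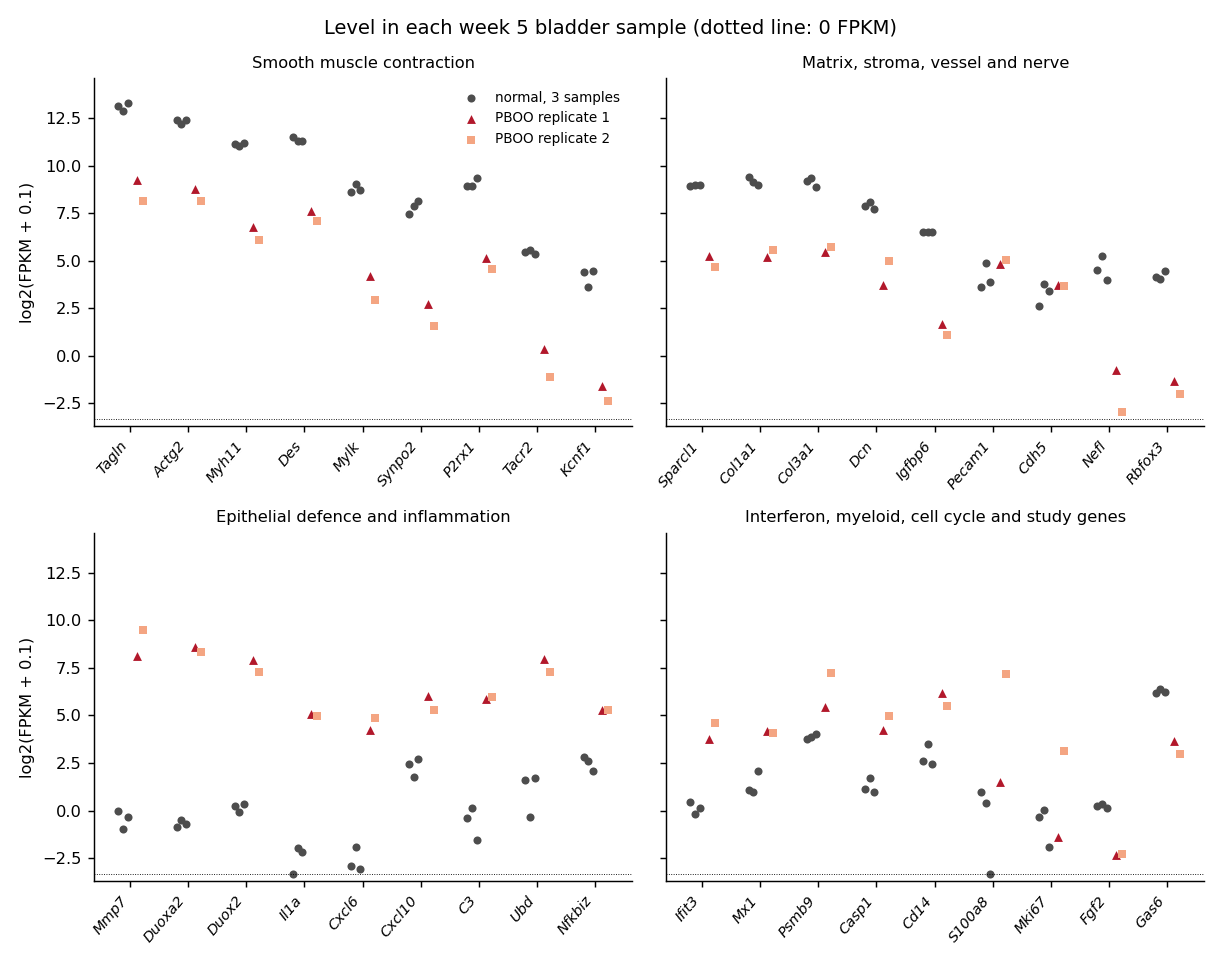
Log2(FPKM + 0.1) of 36 genes in each week 5 sample, in 4 panels; dark circles are the 3 normal samples, the red triangle PBOO replicate 1 and the light square PBOO replicate 2, and the dotted line marks 0 FPKM. Both PBOO samples lie below the 3 normal samples for every contractile gene shown and above them for every epithelial defence gene shown, Pecam1 and Cdh5 overlap, and S100a8 and Mki67 are high in PBOO replicate 2 alone.

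Calcium handling and excitation followed the same direction. Of 20 genes for calcium entry and store release, 11 fell (55%, against 11.3% of all genes) and 0 rose (median log2 fold change -1.565). Jph2, which holds the store membrane against the plasma membrane, was at 113, 121 and 118 FPKM in normal and 4.44 and 2.76 FPKM in PBOO (log2 fold change -5.02, SE 0.21, adjusted p = 0.000236). Pln, which restrains the calcium pump of the store, was at 36.3, 36.3 and 45.4 FPKM in normal and 1.89 and 1.16 FPKM in PBOO (log2 fold change -4.63, SE 0.23, adjusted p = 0.000296). The pump gene itself, Atp2a2, was at 149, 155 and 134 FPKM in normal and 76.0 and 71.2 FPKM in PBOO, a log2 fold change of -0.99 that passed the adjusted p (0.00369) but not the 2-fold limit. The pump thus lay closer to its normal level than its regulator in the same samples. Of 19 potassium channel genes, 13 fell (68.4%, against 11.3% of all genes) and 3 rose (15.8%, against 7.91%). Kcnk1, the most abundant of the list by mean FPKM, was at 47.4, 42.0 and 55.8 FPKM in normal and 62.6 and 37.8 FPKM in PBOO. Its groups overlapped (log2 fold change 0.02, SE 0.25, adjusted p = 0.962). Kcnh2, next by mean FPKM, fell from 32.5, 38.8 and 29.7 FPKM to 1.69 and 1.07 FPKM (log2 fold change -4.54, SE 0.23, adjusted p = 0.000296). Kcnma1, the pore of the BK channel that damps detrusor contraction, fell from 7.16, 8.07 and 7.47 FPKM to 0.298 and 0.150 FPKM (log2 fold change -4.60, SE 0.27, adjusted p = 0.000412). The 3 that rose were Kcnk5 (2.33), Kcnj2 (1.8) and Kcnn4 (1.72), and the call of Kcnj2 was lost without PBOO replicate 2. Kcnf1, an electrically silent potassium channel subunit outside the list, fell from 21.0, 12.1 and 21.8 FPKM to 0.232 and 0.0913 FPKM (log2 fold change -6.14, SE 0.37, adjusted p = 0.000451), one of the 12 largest falls among called genes with a gene name, a mean of at least 10 FPKM and no overlap between groups. Those 12 also held Slc24a3, a sodium, calcium and potassium exchanger (log2 fold change -5.24), Selenbp1, a selenium-binding protein (-6.22), and Ngb, the globin of neurons (-5.41).

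Receptors through which nerves drive the detrusor were lower too. Of 30 transmitter and peptide receptor genes, 12 fell (40%, against 11.3% of all genes) and 2 rose (6.67%, against 7.91%). P2rx1, the ATP-gated channel of bladder muscle, was at 498, 488 and 661 FPKM in normal and 35.6 and 23.7 FPKM in PBOO (log2 fold change -4.22, SE 0.23, adjusted p = 0.000335). Chrm2 was at 8.53, 8.31 and 9.47 FPKM in normal and 0.268 and 0.693 FPKM in PBOO (log2 fold change -4.04, SE 0.35, adjusted p = 0.00125), and Chrm3, the other main muscarinic receptor of the bladder, had a log2 fold change of -3.04. Tacr2, the neurokinin A receptor, fell from 44.2, 48.2 and 41.5 FPKM to 1.17 and 0.372 FPKM (log2 fold change -5.85, SE 0.41, adjusted p = 0.000619), and Adrb3, the beta-3 adrenergic receptor that relaxes the detrusor, fell from 6.46, 5.22 and 6.57 FPKM to 0.350 and 0.0826 FPKM. The receptors that rose were the purinergic P2ry1 (1.49) and P2rx4 (1.19).

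Stromal matrix genes fell with the muscle genes. Of 26 collagen genes 17 fell and 1 rose (median log2 fold change -2.479), and of 41 genes for matrix glycoproteins and elastic fibres 32 fell and 0 rose (median -2.285). Col1a1, which encodes a chain of type I collagen, was at 683, 575 and 516 FPKM in normal and 36.8 and 48.1 FPKM in PBOO (log2 fold change -3.80, SE 0.19, adjusted p = 0.000296). Col3a1 was at 599.7, 658 and 476 FPKM in normal and 44.4 and 52.9 FPKM in PBOO (log2 fold change -3.56, SE 0.18, adjusted p = 0.000296). Sparc, a collagen-binding glycoprotein and the most abundant of its list, fell from 808, 855 and 702 FPKM to 130.2 and 217 FPKM (log2 fold change -2.22, SE 0.25, adjusted p = 0.00267), a smaller fall. Prelp (-4.35), Mfap4 (-4.25) and Matn2 (-4.17) fell furthest after Ogn (-4.99), a small leucine-rich proteoglycan. The collagen that rose was Col7a1, the anchoring fibril collagen that epithelial cells lay under their basement membrane, at 6.51, 4.82 and 3.38 FPKM in normal and 26.0 and 49.5 FPKM in PBOO (log2 fold change 2.89, SE 0.37, adjusted p = 0.00422). The basement membrane collagens Col4a1 (log2 fold change -1.07, adjusted p = 0.0592) and Col4a2 (-1.0, adjusted p = 0.0779) did not pass the test.

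Defining markers of the cell types moved unequally. All 10 smooth muscle markers and 9 of 10 fibroblast markers fell, and 0 of 10 endothelial markers were called in either direction. The summed level of the smooth muscle markers was 24976 to 29232 FPKM in normal and 1863 and 997 FPKM in PBOO. For the fibroblast markers the sums were 1541 to 1997 FPKM in normal and 126 and 177 FPKM in PBOO. The endothelial sum was 52.9 to 97.8 FPKM in normal and 88.5 and 128 FPKM in PBOO, with Pecam1, an adhesion protein of vessel walls, at 12.4, 29.2 and 14.5 FPKM in normal and 28.4 and 33.5 FPKM in PBOO (log2 fold change 0.82, SE 0.38, adjusted p = 0.152). Pdgfrb, a receptor of pericytes and other mural cells, was at 10.8, 11.0 and 11.6 FPKM in normal and 7.83 and 12.9 FPKM in PBOO (log2 fold change -0.15, SE 0.23, adjusted p = 0.656). The urothelial sum was 6254 to 7384 FPKM in normal and 9077 and 9688 FPKM in PBOO, with 2 of 10 markers called higher and 2 lower. Its higher level in PBOO came from the 2 called higher, Krt5 and Krt15. Krt15 alone was at 559 to 698 FPKM in normal and 3628 and 3497 FPKM in PBOO. The median log2 fold change of the 10 markers was -0.010. Of 8 skeletal muscle markers tested 5 fell and 2 rose, and the falls were led by Ckm, the muscle creatine kinase (log2 fold change -5.28). What part the mix of cell types had in the values that follow was not tested.

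Nerve and glia genes fell in part. Of 22 tested, 12 fell (54.5%, against 11.3% of all genes) and 1 rose (4.55%, against 7.91%), with a median log2 fold change of -1.863. Nefl, the light neurofilament chain of axons, was at 22.5, 38.7 and 15.8 FPKM in normal and 0.495 and 0.0284 FPKM in PBOO (log2 fold change -6.44, SE 0.71, adjusted p = 0.00259), and Nefm fell from 9.42, 17.5 and 5.20 FPKM to 0.423 and 0 FPKM (log2 fold change -5.39, SE 0.82, adjusted p = 0.0071). S100b, a calcium-binding protein of Schwann cells, fell from 8.86, 15.7 and 6.51 FPKM to 0.598 and 0.239 FPKM. Rbfox3, outside the list, whose product NeuN marks neuronal nuclei, fell from 17.5, 16.6 and 21.8 FPKM to 0.308 and 0.153 FPKM (log2 fold change -5.85, SE 0.27, adjusted p = 0.000279). Of other neuron markers, Stmn2 fell from 7.88, 3.15 and 5.92 FPKM to 0.194 and 0 FPKM (log2 fold change -4.97, SE 0.61, adjusted p = 0.00353). Prph fell from 4.62, 4.43 and 4.83 FPKM to 1.28 and 0.726 FPKM (log2 fold change -2.14, SE 0.27, adjusted p = 0.004). Elavl4, Snap25 and Uchl1 showed no fall. Elavl4 was at 0 FPKM in each normal sample and at 0 and 0.0122 FPKM in PBOO. Snap25 was at 0.0692, 0.0406 and 0 FPKM in normal and 0.159 and 0.307 FPKM in PBOO. Both were too low to be tested and had almost no normal level to fall from. Uchl1, a neuronal ubiquitin hydrolase, the most abundant of the list by mean FPKM, was at 804, 731 and 785 FPKM in normal and 1309.8 and 724 FPKM in PBOO, and the groups overlapped.

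**Figure D3:**
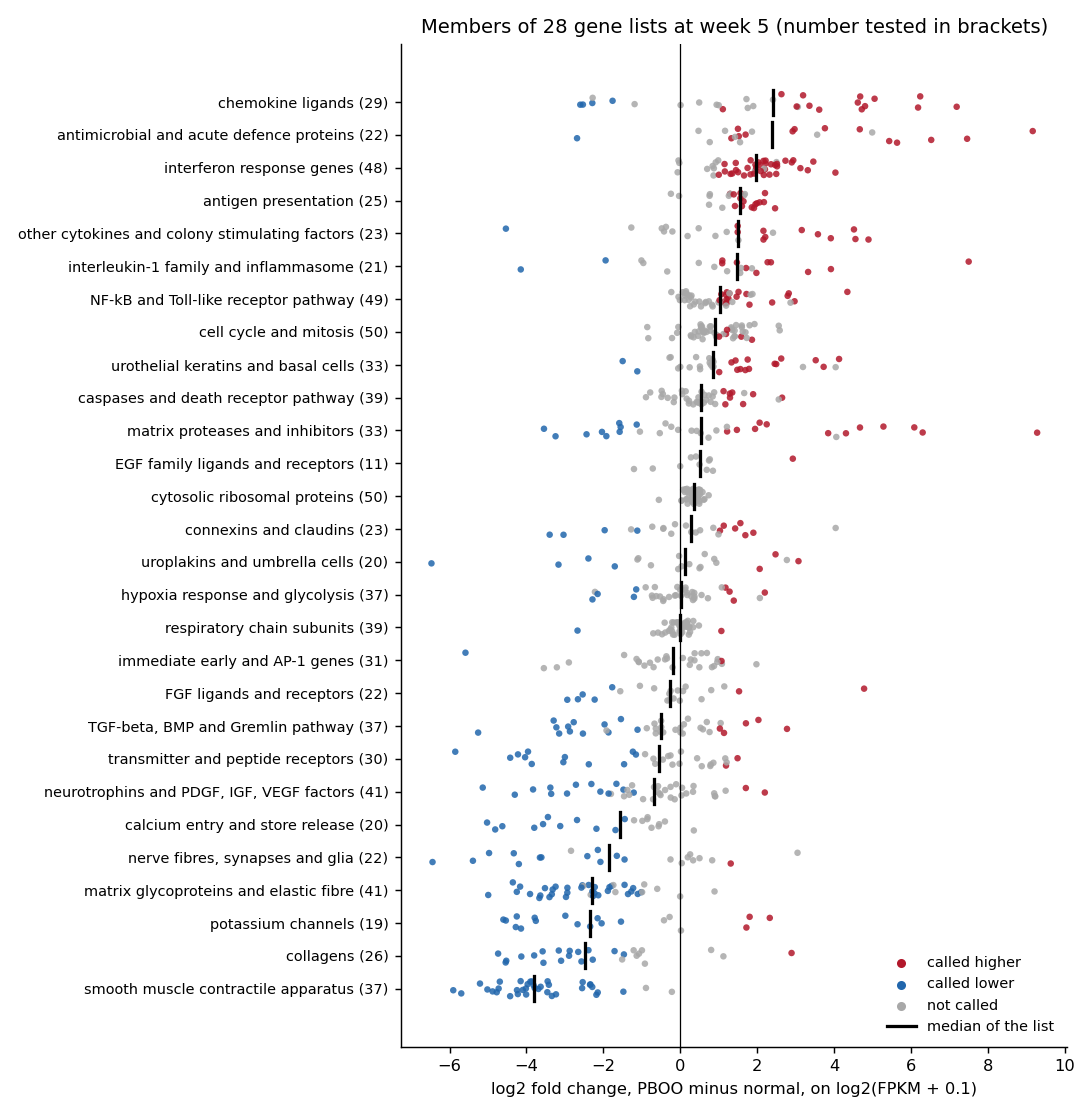
Log2 fold change (PBOO minus normal, x axis) of every tested member of 28 gene lists (rows, number tested in brackets); each point is a gene, red called higher, blue called lower, grey not called, and the black bar is the median of the list. Medians run from -3.816 for the smooth muscle contractile apparatus to 2.412 for the chemokine ligands. The chemokine median includes genes that passed the filter only through PBOO. The respiratory chain list sits near 0 with few calls, and the ribosomal protein list lies slightly above 0 (median 0.348) with no calls.

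Within the urothelium, genes of the same cells moved apart. Upk3a, a uroplakin of the umbrella cell plaque, was at 1764, 1557 and 1796 FPKM in normal and 1835 and 1656 FPKM in PBOO (log2 fold change 0.03, SE 0.18, adjusted p = 0.901), and the groups overlapped. Upk2, its partner in the plaque, was at 1834, 1557 and 1721 FPKM in normal and 321 and 328 FPKM in PBOO (log2 fold change -2.39, SE 0.16, adjusted p = 0.000542). The ratio of Upk2 to Upk3a, both per transcript length, was 1.04, 1.0 and 0.958 in normal, against 0.175 and 0.198 in PBOO. Upk1a (-1.11, adjusted p = 0.0567) and Upk1b (-0.76, adjusted p = 0.115) did not pass the test. Krt20, the keratin of fully mature umbrella cells, was at 72.7, 37.5 and 90.6 FPKM in normal and 0.940 and 0.383 FPKM in PBOO (log2 fold change -6.47, SE 0.48, adjusted p = 0.00077), the largest fall of any named gene. Upk3bl, a uroplakin-like gene, went the other way, from 16.1, 20.9 and 14.3 FPKM to 257 and 79.2 FPKM (log2 fold change 3.07, SE 0.49, adjusted p = 0.00845). Of 20 umbrella cell and uroplakin genes tested, 3 rose (15%) and 4 fell (20%), against 7.91% and 11.3% of all genes. Without PBOO replicate 2 the rises were 6, and without PBOO replicate 1 the falls were 7.

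Basal and stratified keratins were higher. Of 33 genes for urothelial keratins, basal cells and their junctions, 14 rose (42.4%) and 2 fell. The 14 became 8 without normal replicate 1, and the 2 became 1 without PBOO replicate 2 or any normal sample. Krt15, a basal keratin, was at 698, 559 and 645 FPKM in normal and 3628 and 3497 FPKM in PBOO (log2 fold change 2.5, SE 0.18, adjusted p = 0.000663). Krt5, the pairing partner of keratin 14 in basal cells, was at 182, 124 and 97.4 FPKM in normal and 779.7 and 2859 FPKM in PBOO (log2 fold change 3.52, SE 0.58, adjusted p = 0.00892), and PBOO replicate 2 was the higher of the pair. Krt14 was at 83.3, 15.7 and 41.6 FPKM in normal and 112 and 1078 FPKM in PBOO and did not pass the test (adjusted p = 0.0805). Tp63, the transcription factor of basal cells, was at 10.4, 7.11 and 8.99 FPKM in normal and 11.2 and 6.32 FPKM in PBOO (log2 fold change -0.05, SE 0.29, adjusted p = 0.903). Krt18, a keratin of the upper layers, fell from 1014, 769 and 1065 FPKM to 350.1 and 316 FPKM (log2 fold change -1.50, SE 0.20, adjusted p = 0.0043). The ratio of Krt5 to Krt20 was 1.08 to 3.30 in normal, against 829.8 and 7475 in PBOO. Elf3, an epithelial transcription factor, rose from 111, 122 and 117 FPKM to 607 and 392 FPKM (log2 fold change 2.07, SE 0.21, adjusted p = 0.00197). It is 1 of 578 genes tested from a list of transcription factors in the study's supplement, of which 66 rose (11.4%) and 83 fell (14.4%), against 7.91% and 11.3% of all genes.

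**Figure D4:**
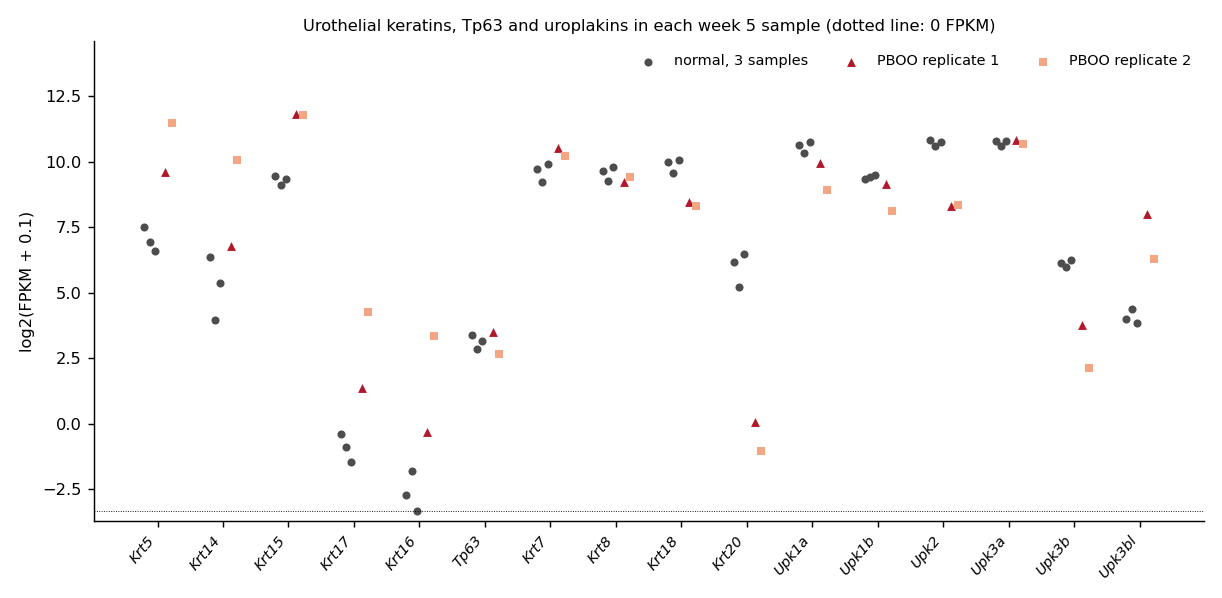
Log2(FPKM + 0.1) of 16 urothelial genes in each week 5 sample; dark circles are the 3 normal samples, the red triangle PBOO replicate 1 and the light square PBOO replicate 2, and the dotted line marks 0 FPKM. Krt5, Krt15, Krt17 and Krt16 lie higher in both PBOO samples, Krt20, Upk2, Upk3b and Krt18 lower in both, and Upk3a is level.

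Enzymes that make reactive oxygen at the epithelial surface rose steeply. Duox2, a dual oxidase that releases hydrogen peroxide, was at 1.06, 0.843 and 1.17 FPKM in normal and 246 and 157 FPKM in PBOO (log2 fold change 7.46, SE 0.25, adjusted p = 0.000188). Duoxa2, the maturation factor that carries Duox2 to the cell surface, was at 0.456, 0.598 and 0.506 FPKM in normal and 383 and 328 FPKM in PBOO (log2 fold change 9.17, SE 0.17, adjusted p = 7.78e-05), with the smallest adjusted p of all genes. Both genes were near the floor in every normal sample and abundant in both PBOO samples. Of 22 antimicrobial and acute defence genes tested, 13 rose (59.1%) and 1 fell, and the 13 became 8 without normal replicate 1. C3, the central complement protein, rose from 0.650, 0.991 and 0.243 FPKM to 57.3 and 63.5 FPKM (log2 fold change 6.53, SE 0.49, adjusted p = 0.00077). Pigr, which carries IgA across epithelia, rose from 13.7, 53.5 and 23.0 FPKM to 589.8 and 207 FPKM (log2 fold change 3.76, SE 0.68, adjusted p = 0.0123). Lbp, which presents bacterial lipopolysaccharide to CD14, was the member that fell, from 11.1, 8.51 and 10.2 FPKM to 1.46 and 1.45 FPKM (log2 fold change -2.68, SE 0.18, adjusted p = 0.00056). The 12 largest rises by the same choice were those of Mmp7, Duoxa2, Duox2, Il1a, C3, Ly6al (8.71), Ly6d (7.56), Clca2 (7.41), Wfdc18 (7.03), Ggt1 (6.72), Ubd (6.62) and the pantetheinase Vnn3 (6.61), with log2 fold changes in brackets. Ubd encodes a ubiquitin-like modifier induced by inflammatory cytokines and stood at 2.98, 0.701 and 3.23 FPKM in normal and 252 and 156 FPKM in PBOO.

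Matrix proteases moved in both directions. Mmp7, the epithelial matrilysin, was at 0.870, 0.415 and 0.688 FPKM in normal and 285 and 730.2 FPKM in PBOO (log2 fold change 9.28, SE 0.46, adjusted p = 0.000296), the largest rise of any named gene. Mmp13, a collagenase, rose from 0.460, 0.288 and 0.0346 FPKM to 20.1 and 21.7 FPKM (log2 fold change 6.09, SE 0.62, adjusted p = 0.00207), and Mmp3, a stromelysin, rose from 1.09, 0.427 and 0.322 FPKM to 12.8 and 48.4 FPKM (log2 fold change 5.28, SE 0.69, adjusted p = 0.0044). Mmp2, a gelatinase of fibroblasts, fell from 62.8, 65.4 and 38.4 FPKM to 6.08 and 16 FPKM (log2 fold change -2.44, SE 0.45, adjusted p = 0.0132), a call lost without normal replicate 1 or 2. Adamts2, which trims procollagen ends, fell from 16.5, 14.8 and 15.3 FPKM to 1.05 and 1.46 FPKM (log2 fold change -3.54, SE 0.18, adjusted p = 0.000296). Over the list of 33 proteases and inhibitors, 12 rose (36.4%, against 7.91% of all genes) and 9 fell (27.3%, against 11.3%). The 12 became 8 without PBOO replicate 2, and the 9 became 5 without normal replicate 1 or 2.

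Chemokines that attract neutrophils through the receptor CXCR2, near 0 FPKM in normal bladder, rose in PBOO. Of 29 chemokine genes, 14 rose (48.3%) and 4 fell (median log2 fold change 2.412), and the 14 became 9 without PBOO replicate 2 and 8, with 2 falls, when a mean of 2 FPKM was required. Cxcl6 was at 0.0346, 0.169 and 0.0192 FPKM in normal and 19.0 and 29.4 FPKM in PBOO (log2 fold change 7.19, SE 0.46, adjusted p = 0.000511). Cxcl1 was at 0.257, 0.115 and 0.300 FPKM in normal and 7.10 and 14.9 FPKM in PBOO (log2 fold change 5.05, SE 0.46, adjusted p = 0.00145). Ccl17, a ligand of CCR4, was listed at 0 in each normal sample and at 10.3 and 5.40 FPKM in PBOO (adjusted p = 0.00077). Cxcl6, Cxcl1, Ccl17, Cxcl2 and Cxcl3 passed the filter only through PBOO, so a rise was the only call open to them. The share of rises and the median of the list include these genes. The ones that fell were Ccl24 (-2.60), Ccl11 (-2.53), Cxcl14 (-2.29) and Ccl27 (-1.76), of which Ccl24 and Ccl11 encode eotaxins. The 4 became 1 without normal replicate 1 and 2 without normal replicate 2. All were expressed in each normal sample, Cxcl14 at 105, 71.8 and 131 FPKM.

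Cytokine genes followed the chemokines. In the interleukin-1 family and inflammasome list 10 of 21 rose (47.6%, against 7.91% of all genes) and 2 fell (9.52%, against 11.3%). Without normal replicate 1, 6 rose. The 2 falls became 1 without normal replicate 1 or 3 or PBOO replicate 1. Il1a, an alarm cytokine of epithelial cells, was at 0, 0.156 and 0.123 FPKM in normal and 33.7 and 30.9 FPKM in PBOO (log2 fold change 7.5, SE 0.46, adjusted p = 0.000469). Casp1, the protease of the inflammasome, rose from 2.12, 3.12 and 1.90 FPKM to 18.8 and 31.3 FPKM (log2 fold change 3.32, SE 0.31, adjusted p = 0.00159). Il33, an alarm cytokine kept in stromal and epithelial nuclei, fell from 76.2, 114 and 104 FPKM to 4.94 and 5.80 FPKM (log2 fold change -4.15, SE 0.20, adjusted p = 0.000296), opposite to Il1a. Of 35 other cytokine and colony stimulating factor genes matched, 23 passed the filter. Of these 11 rose (47.8%, against 7.91% of all genes) and 1 fell (4.35%, against 11.3%). Without normal replicate 1, 6 rose, and 4 rose when a mean of 2 FPKM was required. Il17a was listed at 0 in the normal samples and at 1.19 and 6.74 FPKM in PBOO. Il17a passed the filter only through PBOO, as did Il1a and Tnf, so a fall could not have been called for any of them. Tnf rose from 0.167, 0.156 and 0.148 FPKM to 3.19 and 4.46 FPKM (log2 fold change 3.92, SE 0.36, adjusted p = 0.00145). The member that fell was Il12a, a subunit shared by interleukins 12 and 35, from 20.1, 27.3 and 25.8 FPKM to 1.14 and 0.786 FPKM (log2 fold change -4.54, SE 0.22, adjusted p = 0.000296).

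NF-kB is a family of transcription factors released from inhibitor proteins by cytokines and Toll-like receptors, and some of its target genes encode those same inhibitors. Of 49 genes of the pathway 18 rose (36.7%) and 0 fell. Birc3, an inhibitor of apoptosis, was at 1.29, 1.11 and 1.09 FPKM in normal and 24.8 and 26.3 FPKM in PBOO (log2 fold change 4.35, SE 0.17, adjusted p = 0.000188). Nfkbiz rose from 7.04, 6.0 and 4.10 FPKM to 39.3 and 39.2 FPKM (log2 fold change 2.79, SE 0.24, adjusted p = 0.00124), and Bcl3 rose from 4.13, 4.23 and 5.35 FPKM to 27.5 and 38.9 FPKM (log2 fold change 2.82, SE 0.21, adjusted p = 0.00077), both nuclear members of the inhibitor family. Nfkbia, the classical inhibitor, rose from 16.6, 21.4 and 26.9 FPKM to 87.3 and 143 FPKM (log2 fold change 2.39, SE 0.29, adjusted p = 0.00334). The kinase gene Ikbkb (0.22, adjusted p = 0.308) and the subunit gene Rela (-0.23, adjusted p = 0.339) did not pass the test. The NF-kB motif of 10 bases (GGG, a purine, any 2 bases, 2 pyrimidines and CC), searched on both strands in the 250 bases before the gene start in RefSeq (build GRCr8), was found for 11 of 38 pathway genes and 7 of 22 chemokine genes with a promoter in the table, and for 8.68% of the 9873 genes tested that have one. It was found for 11.2% of all genes called higher and 10.3% of those called lower, and for 25.7% of the interferon list. These are descriptions of letters, not binding sites. The stretches of 60 bases around the match are shown, on the strand of the gene, for the 2 called genes of each list with the largest rise that hold it, with the motif in capitals. In Cxcl6 and Cxcl1 the capitals span 11 bases, since a match on each strand overlaps the other.
Cxcl6 (chr14:17596471-17596530, minus strand): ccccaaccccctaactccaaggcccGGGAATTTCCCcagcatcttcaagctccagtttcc
Cxcl1 (chr14:17479371-17479430, minus strand): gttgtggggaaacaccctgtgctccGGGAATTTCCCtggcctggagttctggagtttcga
Bcl3 (chr1:88613559-88613618, minus strand): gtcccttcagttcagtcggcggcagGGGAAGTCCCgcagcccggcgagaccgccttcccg
Nfkbiz (chr11:58251661-58251720, plus strand): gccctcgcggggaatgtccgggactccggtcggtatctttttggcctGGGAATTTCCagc

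Interferons make cells transcribe a common set of antiviral genes, and this list had the largest share of calls upward of the 31 lists. Of 48 genes tested, 36 rose (75%) and 0 fell, with a median log2 fold change of 1.964, and the 36 became 22 without normal replicate 1 and 39 without PBOO replicate 1. Both PBOO samples lay above every normal sample in 44 of the 48, against 35.3% of all genes. Ifit3, an antiviral effector, was at 1.24, 0.798 and 1.01 FPKM in normal and 13.4 and 24.1 FPKM in PBOO (log2 fold change 4.03, SE 0.32, adjusted p = 0.000945). Rsad2, the antiviral enzyme viperin, was at 0.197, 0.237 and 0.482 FPKM in normal and 4.65 and 3.73 FPKM in PBOO (log2 fold change 3.46, SE 0.41, adjusted p = 0.00316). Zbp1, a sensor of Z-form nucleic acids, rose from 1.28, 3.32 and 2.59 FPKM to 18.0 and 29.8 FPKM (log2 fold change 3.32, SE 0.44, adjusted p = 0.00451). Ifi27, abundant in normal bladder, was at 141, 146 and 229.7 FPKM in normal and 125 and 211 FPKM in PBOO, and the groups overlapped. The core of the interferon-stimulated response element, searched as GAAA, any 2 bases and GAAA on both strands of the same 250 bases, was found for 22 of 35 list genes with a promoter (62.9%), against 2.7% of all tested genes with one. Ifit3, Rsad2 and Gbp4 (log2 fold change 2.94) are the called members with the largest rise that hold it, shown on the strand of the gene with the match, here to the reverse complement, in capitals.
Ifit3 (chr1:241527257-241527316, plus strand): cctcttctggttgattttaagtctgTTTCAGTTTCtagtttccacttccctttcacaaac
Rsad2 (chr6:48788233-48788292, minus strand): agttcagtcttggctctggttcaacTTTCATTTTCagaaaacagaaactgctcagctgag
Gbp4 (chr2:233978426-233978485, plus strand): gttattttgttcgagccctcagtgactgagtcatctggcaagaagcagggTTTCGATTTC

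Antigen presentation genes rose with the interferon genes. Of 25 tested, 15 rose (60%) and 0 fell, which became 6 without normal replicate 1, 7 without normal replicate 3 and 22 without PBOO replicate 1. Psmb9, a subunit of the immunoproteasome, was at 13.3, 14.3 and 16.5 FPKM in normal and 44.1 and 149 FPKM in PBOO (log2 fold change 2.47, SE 0.50, adjusted p = 0.0168), a call lost on leaving out any normal sample. B2m, the light chain of MHC class I, was at 448, 605 and 449 FPKM in normal and 1061 and 2028 FPKM in PBOO (log2 fold change 1.57, SE 0.32, adjusted p = 0.0175), a call lost without normal replicate 1 or 3. Cd74, the invariant chain of MHC class II, was at 217, 286 and 158 FPKM in normal and 365 and 1292 FPKM in PBOO and did not pass (adjusted p = 0.0724). Both PBOO samples lay above the normal samples for all of these, with replicate 2 the higher.

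Leukocyte markers differed between the obstructed bladders. The macrophage marker sum was 36.7 to 99.0 FPKM in normal and 204 and 343 FPKM in PBOO, and 2 of 9 markers tested rose. Cd68, a lysosomal protein of macrophages, rose from 7.99, 11.4 and 4.05 FPKM to 73.4 and 63.1 FPKM, and the other was Cd14. Csf1r, a growth factor receptor of macrophages, was at 5.16, 8.74 and 3.59 FPKM in normal and 6.18 and 15.6 FPKM in PBOO, and the groups overlapped. They also overlapped for Adgre1, the F4/80 antigen (log2 fold change 1.14), and the scavenger receptors Cd163 (-0.39) and Mrc1 (-0.54). The neutrophil marker sum was 0.964 to 4.05 FPKM in normal and 14.9 and 452 FPKM in PBOO, most of it S100a8 and S100a9, and 3 of the 5 markers tested rose. Csf3r, the receptor of granulocyte colony stimulating factor, was at 0.141, 0.125 and 0.0159 FPKM in normal and 1.61 and 5.27 FPKM in PBOO (log2 fold change 4.04, SE 0.68, adjusted p = 0.00955). Cxcr2, the receptor of the CXC chemokines above, was at 0.0816, 0 and 0 FPKM in normal and 1.08 and 3.86 FPKM in PBOO (log2 fold change 4.15, SE 0.73, adjusted p = 0.0114). Csf3r and Cxcr2 passed the filter only through PBOO, so a rise was the only call open to them. The other 5 of the 10 markers, granule protein genes such as Mpo and Elane among them, were below 0.5 FPKM on average. S100a8, a calgranulin of neutrophils that inflamed epithelium can also make, was at 1.89, 1.21 and 0 FPKM in normal and 2.74 and 145 FPKM in PBOO (adjusted p = 0.114). S100a9, its partner, was at 1.73, 0.740 and 0.589 FPKM in normal and 8.87 and 287 FPKM in PBOO, with a call that was lost on leaving out any normal sample. The T and NK cell sum was 14.8 to 22.4 FPKM in normal and 24.1 and 86.3 FPKM in PBOO. What part leukocytes had in the chemokine, cytokine and interferon values was not tested.

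Cell cycle genes were high in a single PBOO sample. Of 50 tested, 28 were at least 4-fold higher in PBOO replicate 2 than in replicate 1 and 0 were at least 4-fold lower, with a median difference of 2.464 on the log2 scale against 0.042 for all genes. Mki67, a protein of dividing nuclei, was at 0.699, 0.922 and 0.166 FPKM in normal and 0.277 and 8.71 FPKM in PBOO (log2 fold change 1.60, SE 1.39, adjusted p = 0.419), with PBOO replicate 1 inside the normal range. The test called 5 of the 50 higher (10%, against 7.91% of all genes) and 0 lower, and the 5 became 2 without any 1 normal sample. Cdc6, a licensing factor of DNA replication, rose in both, from 2.82, 1.66 and 2.31 FPKM to 7.53 and 9.17 FPKM (log2 fold change 1.86, SE 0.26, adjusted p = 0.00557). Ccnd1, cyclin D1, was at 54.5, 54.5 and 55.6 FPKM in normal and 31.4 and 30.1 FPKM in PBOO, a log2 fold change of -0.83 under the 2-fold limit. For the contractile genes the median difference, replicate 2 minus replicate 1, was -0.517, so replicate 2 was mostly the lower. Both PBOO samples still lay below every normal sample for 36 of those 37 genes.

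**Figure D5:**
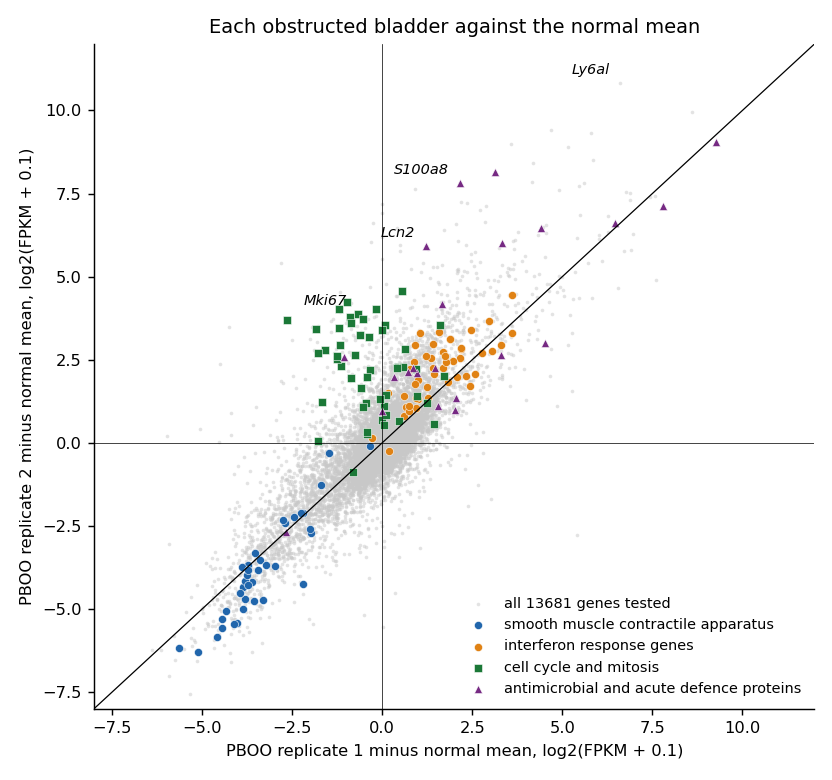
Log2(FPKM + 0.1) of PBOO replicate 1 (x axis) and replicate 2 (y axis), each minus the mean of the 3 normal samples, for the 13681 genes tested (grey) and 4 gene lists (colours and shapes); the diagonal marks an equal distance from normal. Contractile genes lie near the lower end of the diagonal and interferon genes on its upper side, while cell cycle genes and S100a8 lie far above it, high in replicate 2 alone.

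Growth factors and their receptors held both falls and rises, and in the FGF list the share of rises was near that of all genes. Fgf2, the basic fibroblast growth factor, was at 1.08, 1.15 and 1.0 FPKM in normal and 0.0965 and 0.108 FPKM in PBOO (log2 fold change -2.54, SE 0.39, adjusted p = 0.00721), a low level whose call was lost without normal replicate 1 and with a pseudocount of 1. Fgfr1, a receptor for it, fell from 35.1, 36.8 and 33.6 FPKM to 8.08 and 6.83 FPKM (log2 fold change -2.23, SE 0.13, adjusted p = 0.000389), and Fgfr3, another receptor of the family, rose from 54.4, 39.0 and 41.3 FPKM to 129 and 127 FPKM (log2 fold change 1.53, SE 0.17, adjusted p = 0.00272). Of 22 genes of the FGF list 5 fell (22.7%, against 11.3% of all genes) and 2 rose (9.09%, against 7.91%). There were 2 falls left without normal replicate 1, 3 without normal replicate 2, and 1 rise left without any 1 normal sample. Gas6, the ligand of the TAM receptors, fell from 71.9, 85.3 and 74.5 FPKM to 12.7 and 7.77 FPKM (log2 fold change -2.94, SE 0.23, adjusted p = 0.000834). Bdnf, a neurotrophin, was at 0.0680, 0.110 and 0.252 FPKM in normal and 0.0631 and 0.139 FPKM in PBOO, and its receptor gene Ntrk2 was at 0.0865, 0.361 and 0.0704 FPKM in normal and 0.0298 and 0.0872 FPKM in PBOO. Both were under the mean of 0.5 FPKM, were not tested, and overlapped between groups. Ntf3, another neurotrophin, fell from 6.24, 5.79 and 5.97 FPKM to 0.296 and 0.141 FPKM (log2 fold change -4.30, SE 0.29, adjusted p = 0.00056), and Igfbp6, a binding protein of insulin-like growth factors, fell from 93.0, 91.0 and 93.3 FPKM to 3.10 and 2.06 FPKM (log2 fold change -5.14, SE 0.19, adjusted p = 0.000188). Of the 41 neurotrophin, PDGF, IGF and VEGF genes 13 fell (31.7%) and 2 rose (4.88%). The rises were Vegfa, the main angiogenic factor, from 69.7, 55.0 and 47.4 FPKM to 187 and 362 FPKM (log2 fold change 2.20, SE 0.32, adjusted p = 0.00585), and Met, the receptor of hepatocyte growth factor, from 3.63, 3.64 and 3.46 FPKM to 12.1 and 11.7 FPKM (log2 fold change 1.71, SE 0.14, adjusted p = 0.000967).

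The transforming growth factor beta genes changed in both directions. Of 37 genes of that and the BMP and Gremlin pathway 12 fell (32.4%, against 11.3% of all genes) and 5 rose (13.5%, against 7.91%). The rises became 2 without normal replicate 3 and 3 without normal replicate 1. Tgfb1 rose from 17.3, 17.7 and 13.5 FPKM to 55.7 and 49.8 FPKM (log2 fold change 1.71, SE 0.16, adjusted p = 0.00163), while Tgfb3 fell from 8.01, 10.1 and 10.6 FPKM to 1.86 and 0.495 FPKM (log2 fold change -3.15, SE 0.50, adjusted p = 0.00826). Chrdl1, a secreted BMP antagonist, fell furthest, from 4.61, 18.9 and 12.5 FPKM to 0.245 and 0.114 FPKM (log2 fold change -5.26, SE 0.62, adjusted p = 0.00317). Gdf15, a stress-induced member of the family, rose from 3.36, 1.89 and 2.02 FPKM to 23.5 and 11.8 FPKM (log2 fold change 2.78, SE 0.38, adjusted p = 0.00517). Hbegf, a ligand of the EGF receptor, was the single call among 11 genes of the EGF family (9.09%, against 7.91% of all genes called higher). It rose from 4.07, 3.80 and 2.85 FPKM to 24.7 and 30.7 FPKM (log2 fold change 2.93, SE 0.21, adjusted p = 0.000649). In a list of 240 growth factor related genes used by the study 37 rose (15.4%, against 7.91% of all genes) and 25 fell (10.4%, against 11.3%). In its list of 95 ion channel and connexin genes 19 rose (20%) and 22 fell (23.2%), with 10 rises left without normal replicate 1 and 12 without normal replicate 3.

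Respiratory chain and ribosomal protein genes showed few calls. Of 39 respiratory chain subunit genes 1 rose and 1 fell (median log2 fold change 0.005), and of 50 cytosolic ribosomal protein genes 0 were called by limma in either direction (median 0.348, an unadjusted p under 0.05 in 12). The ribosomal protein genes still leaned upward, with a log2 fold change above 0 in 49 of the 50, where the median of all genes was 0.123. Both PBOO samples lay above every normal sample in 34 of the 50, a larger share than the 35.3% of all genes. Glycolysis and hypoxia genes gave 4 rises and 4 falls among 37 (10.8% each way, against 7.91% and 11.3% of all genes), with 2 rises left without normal replicate 1 or 2 or PBOO replicate 2, 8 rises without PBOO replicate 1, and 7 falls without PBOO replicate 2. Gapdh, often taken as a reference gene, was at 665, 505 and 655 FPKM in normal and 554 and 1089 FPKM in PBOO (log2 fold change 0.36, SE 0.32, adjusted p = 0.427). Of 39 genes for caspases and death receptors 8 rose (20.5%) and 0 fell, with 4 rises left without normal replicate 1 and 13 without PBOO replicate 1. Casp8, the protease that starts death receptor signalling, was among them, at 7.12, 7.19 and 6.02 FPKM in normal and 19.1 and 15.9 FPKM in PBOO (log2 fold change 1.35, SE 0.16, adjusted p = 0.00309). Of 23 connexin and claudin genes 6 rose (26.1%) and 4 fell (17.4%), with 3 rises left without normal replicate 1. Cldn7 rose from 45.7, 42.3 and 55.2 FPKM to 169 and 139 FPKM (log2 fold change 1.69, SE 0.17, adjusted p = 0.00186) and Gjc1, a connexin of smooth muscle, fell from 8.85, 9.25 and 11.7 FPKM to 2.25 and 2.66 FPKM (log2 fold change -1.97, SE 0.19, adjusted p = 0.00171).

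Immediate early genes, which are transcribed within minutes of a stimulus, differed among the normal samples. Egr1 was at 331, 577 and 12.3 FPKM in normal and 182 and 142 FPKM in PBOO, and Cyr61, a matricellular protein gene of the same kind, was at 548, 655 and 21.3 FPKM in normal and 14.9 and 18.9 FPKM in PBOO. Normal replicate 3 stood far below the other normal samples for both. Over 31 genes of the list its median difference from the other normal samples was -1.331 on the log2 scale, against -0.046 over all genes. The list gave 1 rise and 1 fall, which became 0 rises and 8 falls without normal replicate 3. The fall was Arc, at 27.0, 58.4 and 3.11 FPKM in normal and 0.357 and 0.181 FPKM in PBOO, a call that was lost on leaving out normal replicate 1 or 2 or either PBOO sample.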

How the data were processed

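Total RNA of rat bladder was sequenced, and per the submitters' processing notes reads were aligned with HISAT2 and assembled with StringTie, with limma and DESeq2 also named. The authors deposited FPKM per gene, a level scaled to transcript length and library size, without counts. Those notes name mm10, a mouse build, for these rat samples, so which annotation and reads the gene levels rest on is uncertain. Strand and annotation are not given in the sources used here. Of the columns, 5 were used and 6 of week 4 were not used here. Labels gave the groups and replicate numbers.

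Genes averaging 0.5 FPKM or more were tested on log2(FPKM + 0.1) with limma 3.58.1 (trended prior) in R 4.3.3, without a block for the replicate number, and 3 residual degrees of freedom remained. A call needed a Benjamini-Hochberg adjusted p under 0.05 and at least 2-fold. The fits were tested on simulated data. The depth behind the FPKM is unknown, so no counting interval is given.

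The gene lists, the comparison and its rules were chosen with earlier results of these data known. The text names, per list and direction, up to 4 called genes without overlap and averaging 1 FPKM or more, the 2 most abundant members, the 12 largest rises and 12 largest falls among called genes averaging 10 FPKM or more and no overlap, Bdnf, Ntrk2, Fgf2, Gas6 and Mki67, and defining markers. Ccl27, Chrm3, Cnn2, Col4a1, Col4a2, Gbp4, Ikbkb, Krt14, Pdgfrb, Rela, Smtnl2, Tp63 and Upk1b, the markers Cd163, Mrc1, Cxcr2, Mpo, Elane, Prph and Snap25, the prostate genes and the families of the closing section were chosen after their values were seen. Genes listed under a symbol shared by close copies, such as those of the MHC, are uncertain. Alternatives were another pseudocount, filter, scaling and prior, a replicate block, and each sample left out. Promoters were read from RefSeq (GRCr8), from 250 bases before the gene start. Figures were drawn with matplotlib 3.10.9. Some items are not reported here.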

Additional observations from a re-analysis of the deposited data

How the results depend on the processing

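With 2 PBOO and 3 normal samples, leaving out 1 sample gave 646 to 1696 higher and 1027 to 1802 lower calls, and 307 to 826 higher and 878 to 1051 lower genes by the 4-fold rule with an unadjusted p. The median change of all genes on the log2 scale was 0.083 to 0.139 over the same settings. The 4-fold rule gave 231 higher and 491 lower genes with a pseudocount of 1, and 312 higher genes when a mean of 2 FPKM was required. The median was 0.021 with median-ratio scaling, 0.083 with quantile normalization and 0.053 with columns scaled to 1 sum. Lower calls outnumbered higher calls under each of the 14 alternatives, and no called gene changed sign under any of them. Of 247 named genes called, 186 kept the call whichever sample was left out and 212 kept it under every other alternative. Causes of these changes were not tested. The mouse build named for the alignment, the Y-linked difference and the prostate transcripts of normal replicate 2 limit all comparisons, and without counts the precision of low levels is unknown.

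The replicate numbers share no stated source, and the deviations of same-numbered samples correlated at -0.000814 and 0.124, so the numbers were not taken to pair the samples. A fit with the replicate number as a block dropped normal replicate 3, and gave 948 higher and 1363 lower calls. In that block fit the log2 fold change of Egr1 was -1.44, against 0.27 in the comparison reported, where the gene was not called.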

Other observations

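The families described here were chosen after their values were seen and taken whole by symbol, so their counts, against 7.91% of all genes called higher and 11.3% lower, are a description. Members near 0 FPKM in normal, such as Noxo1, Tmprss11b and Muc4, passed the filter only through their PBOO values. A rise was the only call open to them. Of 11 NADPH oxidase and DUOX genes tested, 8 were called higher in PBOO and 0 lower, among them Duox2 and Duoxa2 and the phagocyte oxidase genes Ncf1 and Cyba. Noxo1, the organiser subunit of the NOX1 oxidase, was at 0.0321, 0 and 0 FPKM in normal and 12.8 and 17.2 FPKM in PBOO (log2 fold change 7.09, SE 0.37, adjusted p = 0.000296), and Noxa1, its activator, was at 0.467, 0.756 and 0.323 FPKM in normal and 7.93 and 10.8 FPKM in PBOO (log2 fold change 3.98, SE 0.37, adjusted p = 0.00153). All 4 Clca genes, relatives of chloride channel regulators, rose, with Clca1 at 0.698, 0.524 and 0.516 FPKM in normal and 51.5 and 54.5 FPKM in PBOO (log2 fold change 6.30, SE 0.19, adjusted p = 0.000188). Of 16 TMPRSS genes, which encode membrane serine proteases, 7 passed the filter, and of these 4 rose and 0 fell. Tmprss11b was at 0, 0.0823 and 0.101 FPKM in normal and 16.8 and 29.0 FPKM in PBOO (log2 fold change 7.17, SE 0.45, adjusted p = 0.000492). Tmprss2 was at 203, 186 and 237 FPKM in normal and 305 and 228 FPKM in PBOO (adjusted p = 0.215). Of 10 mucin genes 2 passed the filter, and both rose. Muc4, a membrane mucin, was at 0, 0.0132 and 0.0112 FPKM in normal and 9.95 and 2.62 FPKM in PBOO (log2 fold change 5.60, SE 0.66, adjusted p = 0.00321). Gkn3, a gastrokine known from stomach, was at 6.47, 2.22 and 2.91 FPKM in normal and 139.7 and 72.6 FPKM in PBOO (log2 fold change 4.81, SE 0.51, adjusted p = 0.00224). Of 13 Ly6 and Lypd surface protein genes 7 rose and 1 fell, and Lypd3 was at 42.0, 35.0 and 37.5 FPKM in normal and 211 and 251 FPKM in PBOO (log2 fold change 2.59, SE 0.14, adjusted p = 0.000331). Of 13 genes tested with an S100 symbol, the binding protein gene S100pbp and the prostate gene S100vp included, 6 rose and 1, S100b, fell. S100a4 was at 168, 168 and 177 FPKM in normal and 826 and 820.2 FPKM in PBOO (log2 fold change 2.27, SE 0.12, adjusted p = 0.000296).

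The HoxB genes, transcription factors that set position along the body axis, had 7 of 9 called higher and 0 lower (median log2 fold change 1.256), a family also chosen after its values were seen. Hoxb6 was at 26.8, 23.1 and 29.6 FPKM in normal and 99.5 and 96.8 FPKM in PBOO (log2 fold change 1.89, SE 0.14, adjusted p = 0.000762). Its neighbour Hoxb8 was at 29.8, 18.9 and 23.9 FPKM in normal and 28 and 25.5 FPKM in PBOO (adjusted p = 0.574). Hoxb13, known from prostate, was at 1.23, 13.8 and 0.631 FPKM in normal and 0.0482 and 1.38 FPKM in PBOO, high in normal replicate 2, the library with prostate transcripts. Hoxb2 lost its call under each of the 3 other scalings. Of 14 HoxA and HoxD genes tested 2 rose and 1 fell, and no HoxC gene was among the genes tested. Small heat shock proteins went the opposite way, with 5 of 6 lower. Hspb6, a partner of the smooth muscle contractile apparatus, was at 535, 576 and 473 FPKM in normal and 30.9 and 21.4 FPKM in PBOO (log2 fold change -4.35, SE 0.20, adjusted p = 0.000276), and Hspb1, the most abundant, was at 636, 533 and 566 FPKM in normal and 337 and 137 FPKM in PBOO (log2 fold change -1.42, SE 0.38, adjusted p = 0.0394), a call lost on leaving out any 1 normal sample or PBOO replicate 2.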
